A study of Homo sapiens with 6 samples.

Results

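The genes described here are 35 collagen chains and collagen-processing enzymes, chosen by name: 24 chains, the prolyl and lysyl hydroxylases, the chaperone SERPINH1, the enhancer protein PCOLCE and 3 lysyl oxidases. Of these, 34 were matched to 87 probe sets annotated to their symbol alone, of 41091 such probe sets and 19775 genes on the array. COL17A1 had no probe set annotated to it alone and has no value here. A probe set is a group of short probes that reads 1 transcript region, and each gene was read by its brightest one, with the others set beside it. Signals are on the log2 scale, so that 1 unit is a 2-fold difference, and signals under the median of all values, 3.71, were set to that floor. Signals above the floor were found for 32 members in all, 24 of them on all 6 arrays, and the 31 that passed it on 2 or more arrays were tested. COL11A1 (3 probe sets) and COL15A1 (1 probe set) lay at the floor on every array, and COL21A1 lay above it on 1 array only.

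The arrays held RNA from HMLE, human mammary epithelial cells that were immortalised and grow as a line. The control line carried a pBabe-shGFP retrovirus, which encodes a hairpin against green fluorescent protein, and the Twist line a pBabe-Twist retrovirus, for a transcription factor of the epithelial-mesenchymal transition. Each line was given the solvent DMSO or Cmp302, a compound known here by its code name alone, at 2 levels, and every culture was kept in the same mix of serum-containing DMEM and MEGM with insulin, hydrocortisone and EGF. Titles and protocol name the levels 5 µM and 10 µM for 6 h, while the treatment tags give 2 µM for 4 h and for 8 h. The 2 levels are called 5 µM and 10 µM below after the titles, and whether they differ in dose or in time cannot be told apart. Each of the 6 groups is 1 array, so 2 arrays alone allow no test. The sources used here do not give whether a line is a clone or a pool of infected cells. Tests therefore used all 6 arrays at once: a line term (Twist minus control, over the 3 treatments) and a trend per level within each line, each with 2 residual degrees of freedom.

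Collagens are made of 3 chains wound into a triple helix. The chains are hydroxylated on proline and lysine and folded in the endoplasmic reticulum, trimmed outside the cell and crosslinked by lysyl oxidases. Fibrillar collagens give connective tissue its strength, type IV collagens form the network of basement membranes on which mammary epithelium rests, and type VI collagens form beaded microfibrils. Mesenchymal cells make most interstitial collagen, and Twist is a basic helix-loop-helix factor that binds E-boxes, the letters CANNTG.

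Promoter sequences from RefSeq (GRCh38.p14), each the 250 bases before a start site and 50 after it, covered 27 members in 35 windows. Type IV genes lie head to head and share their upstream sequence, so the stretches between or before their start sites are shown first. The start sites of COL4A1 and COL4A2 lay 126 bases apart, at chr13:110307158-110307283, and those of COL4A6 and COL4A5 379 bases apart. Shown with them are the 250 bases upstream of COL4A5 (chrX:108439588-108439837, plus strand), of COL6A2 (chr21:46097862-46098111, plus strand), the chain with the widest line difference among those with a window, and of COL5A3 (chr19:10010505-10010754, minus strand), the member that rose with Cmp302. Sequences run 5′ to 3′ on the named strand (plus for the pair on chromosome 13), and capitals mark each CANNTG.
COL4A1-COL4A2: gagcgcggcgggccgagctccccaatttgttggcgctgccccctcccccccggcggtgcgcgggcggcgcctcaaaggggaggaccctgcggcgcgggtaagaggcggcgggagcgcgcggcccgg
COL4A5: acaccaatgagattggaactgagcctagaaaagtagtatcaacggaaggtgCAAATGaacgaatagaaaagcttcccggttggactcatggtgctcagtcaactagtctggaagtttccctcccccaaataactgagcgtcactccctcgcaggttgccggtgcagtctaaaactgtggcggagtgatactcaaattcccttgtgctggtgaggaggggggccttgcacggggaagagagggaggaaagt
COL6A2: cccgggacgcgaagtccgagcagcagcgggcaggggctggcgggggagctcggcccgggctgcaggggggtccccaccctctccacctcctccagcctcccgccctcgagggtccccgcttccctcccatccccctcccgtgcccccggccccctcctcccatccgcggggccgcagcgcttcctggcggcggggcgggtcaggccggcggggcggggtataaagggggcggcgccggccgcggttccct
COL5A3: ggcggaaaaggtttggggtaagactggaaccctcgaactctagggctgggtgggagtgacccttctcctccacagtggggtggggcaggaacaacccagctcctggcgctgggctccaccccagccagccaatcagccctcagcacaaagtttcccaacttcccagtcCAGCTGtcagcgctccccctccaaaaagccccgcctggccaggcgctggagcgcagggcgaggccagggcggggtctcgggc
No CANNTG stood between the COL4A1 and COL4A2 start sites or upstream of COL6A2, and the COL4A5 and COL5A3 stretches held 1 each. Letters were counted in the 250 bases before each start site alone, not in the 50 after it. Of the 35 member windows, 17 (48.6%) held a CANNTG there, against 61.8% of all 35116 windows read the same way. Of the forms within it, each searched on both strands, CATATG stood in 0 against 2.6% of all windows, CATCTG in 2 (5.7%) against 12.2%, CACCTG in 4 (11.4%) against 17.5%, and CAGCTG in 5 (14.3%) against 14.0%. These are matches of letters, not binding sites.

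The labels were checked first. In the Twist line KRT5, KRT14, CDH1 and EPCAM, epithelial genes, were lower, and VIM, CDH2, ZEB1 and TWIST1, mesenchymal genes, were higher, so that all 8 of the measured check genes were called. TWIST1 differed by 1.06 ± 0.21 log2 units (SE), with an adjusted p of 0.017, and its signals on the control arrays were already 10.48 to 10.70. Of 13 markers of blood, endothelial and fat cells, 10 lay at the floor on all arrays. The defining markers PTPRC, VWF, CDH5 and ADIPOQ were among these. PECAM1 and FABP4 were higher in the Twist line and CD14, a blood cell marker, was lower, and the 13 markers summed to 53.0 to 54.1 log2 units on control arrays and 59.0 to 59.6 on Twist arrays. Their part in the line differences was not tested. RNA integrity was read from control probe sets of ACTB and GAPDH, as the 3′ signal minus the middle one. Control-line arrays gave 0.28, 0.45 and 0.835 log2 units at DMSO, 5 µM and 10 µM, and Twist-line arrays gave 0.955, 0.355 and 0.445. This contrast was highest on the Twist DMSO array, which the Twist-line trends start from.

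The first question was how collagen genes differed between the lines. Fibrillar collagens, type VI collagens and the extracellular enzymes were mostly higher in the Twist line. Of 4 basement membrane chains 0 was, a count too small to set apart from the 13.7% of all tested genes called higher. Of the 24 members above the floor on all 6 arrays, 12 were higher in the Twist line and 2 lower, against 11.9% and 11.1% of the 10790 genes that met the same condition. Over the 31 tested members the counts were 19 higher and 2 lower, against 13.7% and 14.9% of the 12480 genes tested. Of the 19, 5 (COL1A2, COL3A1, COL6A2, COL13A1 and P4HA3) lay at the floor on every control array and 2 (COL5A3 and PCOLCE) on both Cmp302 arrays of that line. These 7 passed the filter only through the Twist line, so the higher share is in part set by it. Their line differences, SE and p-values are taken against the floor and move with it, so each difference is a lower bound. The median line difference was 1.40 log2 units over the 31 members and -0.01 over all genes. On the 2 DMSO arrays alone, 17 of 31 members were at least 2-fold higher in the Twist line and 0 lower, with 11.9% and 13.6% of all measured genes past that fold.

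**Figure D1:**
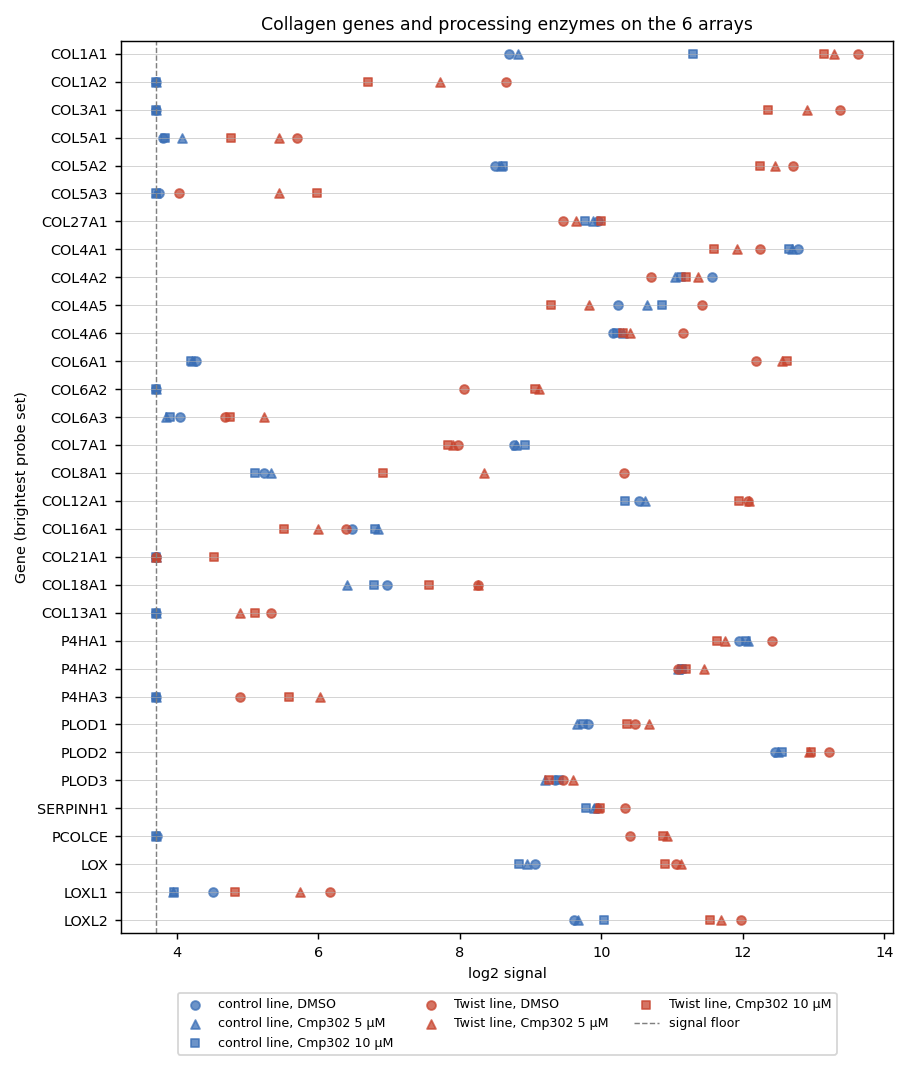
The log2 signal (x axis) of each gene above the floor on any array (y axis) is plotted, with blue points for the control line, red points for the Twist line, a shape for each treatment and a dashed line at the floor. The 3 Twist points of COL3A1, COL6A1 and PCOLCE lie above 10 while their control points lie at or near the floor, and the points of P4HA2 and PLOD3 overlap between lines.

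Type I, III and V collagens form the interstitial fibrils. All values below are given in the order DMSO, 5 µM, 10 µM. COL3A1, the type III chain, was at the floor on the 3 control arrays and read 13.38, 12.90 and 12.35 on the Twist arrays, at least 812-fold higher at DMSO. Its line difference was at least 9.16 ± 0.27 log2 units (SE; adjusted p = 2.6e-05). COL1A2, the second chain of type I, was also at the floor in the control line and read 8.66, 7.72 and 6.71 in the Twist line, at least 30.8-fold higher at DMSO (line difference at least 3.98 ± 0.37, adjusted p = 0.0010). COL5A2, a type V chain that takes part in starting fibrils, read 8.50, 8.59 and 8.61 against 12.71, 12.46 and 12.25 (3.90 ± 0.21, adjusted p = 1.2e-04). For these 3 genes each Twist array stood above each control array.

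COL1A1, the main chain of type I, read 8.70, 8.82 and 11.30 against 13.63, 13.29 and 13.15. The lines did not overlap (3.75 ± 0.61, adjusted p = 0.0084), but the control array at 10 µM stood 6.09-fold above its DMSO array. That higher value was read by the brightest probe set alone. The second COL1A1 probe set, in order of mean signal, read 5.79, 5.92 and 5.77 on the same arrays, and the third lay at the floor. All 4 tested probe sets of COL1A1 were higher in the Twist line, by 1.40 to 6.93 log2 units.

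Of the remaining fibrillar chains, both type V genes differed between lines. COL5A1, the other main type V chain, read 3.81, 4.07 and 3.84 against 5.70, 5.45 and 4.77 (1.40 ± 0.20, adjusted p = 0.0055). COL5A3, a less widely made type V chain, was at the floor on both Cmp302 arrays of the control line and 3.75 at DMSO. Its Twist arrays read 4.04, 5.45 and 5.99 (line difference at least 1.44 ± 0.38, adjusted p = 0.042). At DMSO its lines differed 1.22-fold only. COL27A1, a fibrillar chain of cartilage, read 9.95, 9.89 and 9.77 against 9.46, 9.65 and 10.00, and its lines overlapped (-0.17, adjusted p = 0.66). With the median over its probe sets it was called lower (-0.58, adjusted p = 0.018). Of the 7 fibrillar chains tested, 6 were higher and 0 lower by their brightest probe sets, against 13.7% and 14.9% of all tested genes. COL1A2, COL3A1 and COL5A3 passed the filter only through the Twist line, so this count is in part set by it.

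All 3 type VI chains were higher, against 13.7% of all tested genes, but COL6A2 passed the filter only through its Twist arrays. COL6A1 read 4.28, 4.22 and 4.20 against 12.19, 12.56 and 12.62, 241-fold higher at DMSO (8.22 ± 0.22, adjusted p = 2.6e-05). That size was read by the brightest of 8 probe sets, and the line difference was 2.36 with the median over them and 3.21 without the suffixes that mark possible cross-hybridisation, still called in both. COL6A2 was at the floor in the control line and read 8.06, 9.12 and 9.06 in the Twist line (at least 5.03 ± 0.27, adjusted p = 1.2e-04). With the floor at the 35th or the 65th percentile this was 5.78 or 2.72. COL6A3, the largest type VI chain, read 4.05, 3.85 and 3.91 against 4.68, 5.24 and 4.76 (0.95 ± 0.17, adjusted p = 0.012). COL6A1 and COL6A2 thus read near or at the floor in the control line, and the Twist signals of COL6A3 stayed within 2 units of it.

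Of the 4 basement membrane chains, 0 were higher and 1 was lower. With 13.7% and 14.9% of all tested genes so called, these counts do not set the chains apart. COL4A1, which pairs with COL4A2 in the common type IV helix, read 12.78, 12.70 and 12.65 against 12.25, 11.92 and 11.60, a line difference of -0.79 ± 0.19 (adjusted p = 0.030). COL4A2 read 11.56, 11.04 and 11.12 against 10.70, 11.37 and 11.20, so the partner under the shared upstream sequence shown above overlapped between lines (-0.15, adjusted p = 0.76). The pair on the X chromosome overlapped as well. COL4A5 read 10.24, 10.65 and 10.86 against 11.42, 9.83 and 9.29 (-0.41, adjusted p = 0.65). It stood 2.27-fold higher in the Twist line at DMSO and 2.97-fold lower at 10 µM. COL4A6 read 10.17, 10.31 and 10.22 against 11.16, 10.41 and 10.31 (0.39, adjusted p = 0.34).

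Among the other chains, 4 of 6 were higher and 1 lower, against 13.7% and 14.9% of all tested genes. COL13A1 passed the filter only through the Twist line, so the higher count is in part set by it. COL8A1, a short-chain collagen of vessel walls and of the eye, read 5.24, 5.34 and 5.11 against 10.32, 8.34 and 6.92, which was 33.8-fold higher at DMSO and 3.50-fold at 10 µM (3.29 ± 0.61, adjusted p = 0.013). COL12A1, which sits on fibril surfaces, read 10.53, 10.62 and 10.34 against 12.07, 12.09 and 11.94 (1.53 ± 0.17, adjusted p = 0.0022). COL18A1, the source of endostatin, read 6.97, 6.41 and 6.79 against 8.26, 8.26 and 7.56 (1.30 ± 0.27, adjusted p = 0.019), a call lost without the pair at 5 µM. COL13A1, a transmembrane collagen, was at the floor in the control line and read 5.33, 4.89 and 5.11 in the Twist line (at least 1.40 ± 0.13, adjusted p = 0.0010). In all 4 the lines did not overlap.

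COL7A1, which forms the anchoring fibrils under epithelia, was lower in the Twist line, with 8.77, 8.79 and 8.92 against 7.97, 7.90 and 7.83 (-0.93 ± 0.21, adjusted p = 0.024). COL16A1, a fibril-associated chain, read 6.48, 6.84 and 6.80 against 6.39, 6.00 and 5.52. Its lines did not overlap, but its difference missed the threshold (-0.74, adjusted p = 0.10). COL21A1 reached 4.53 on the Twist array at 10 µM and was at the floor elsewhere. The lower calls of COL4A1 and COL7A1 were lost when the pair of arrays at either Cmp302 level was left out, with 0 members then called lower.

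Of the 7 hydroxylases and chaperone, 2 were higher and 0 lower, against 13.7% and 14.9% of all tested genes. These counts are too small to set the group apart, and P4HA3 passed the filter only through the Twist line. P4HA1, the main catalytic subunit of prolyl 4-hydroxylase, read 11.94, 12.08 and 12.05 against 12.41, 11.75 and 11.64 (-0.09, adjusted p = 0.83). P4HA2, its second form, read 11.13, 11.09 and 11.14 against 11.08, 11.45 and 11.20 (0.12, adjusted p = 0.71). P4HA3, the third form, was at the floor in the control line and read 4.89, 6.03 and 5.59 in the Twist line (at least 1.79 ± 0.23, adjusted p = 0.0035). Only this form of the 3 was called between lines. Whether it differed from the others was not tested.

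Lysyl hydroxylases prepare the residues for crosslinks. PLOD1 was higher in the Twist line, with 9.81, 9.66 and 9.74 against 10.48, 10.68 and 10.37 (0.77 ± 0.20, adjusted p = 0.041). Its call was lost without either Cmp302 pair. PLOD2, which hydroxylates the telopeptides, read 12.46, 12.50 and 12.55 against 13.22, 12.93 and 12.97. Those lines did not overlap, yet the difference of 0.53 missed the threshold (adjusted p = 0.077). The other PLOD2 probe set was called higher (adjusted p = 0.011), as was the median of both (1.02, adjusted p = 0.010). PLOD3, which also glycosylates collagen, read 9.34, 9.20 and 9.41 against 9.46, 9.60 and 9.26 (0.12, adjusted p = 0.75). SERPINH1, or HSP47, the chaperone of the triple helix, read 9.94, 9.90 and 9.79 against 10.34, 9.96 and 9.98 (0.21, adjusted p = 0.50).

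All 4 extracellular genes were higher in the Twist line, against 13.7% of all tested genes, but PCOLCE passed the filter only through that line. PCOLCE, which enhances removal of the C-propeptide, was at the floor on both Cmp302 arrays of the control line and 3.73 at DMSO. Its Twist arrays read 10.41, 10.93 and 10.87, at least 103-fold higher at DMSO (line difference at least 7.02 ± 0.21, adjusted p = 2.6e-05), or 4.71 with the floor at the 65th percentile. LOX, which oxidises lysines for crosslinking, read 9.07, 8.95 and 8.84 against 11.05, 11.13 and 10.90 (2.07 ± 0.19, adjusted p = 9.5e-04). LOXL2, a relative that also acts on type IV collagen, read 9.61, 9.67 and 10.04 against 11.97, 11.69 and 11.53 (1.95 ± 0.24, adjusted p = 0.0027). LOXL1, best known for its part in elastic fibres, read 4.52, 3.95 and 3.96 against 6.17, 5.74 and 4.83 (1.43 ± 0.21, adjusted p = 0.0058). The lines did not overlap for any of the 4.

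**Figure D2:**
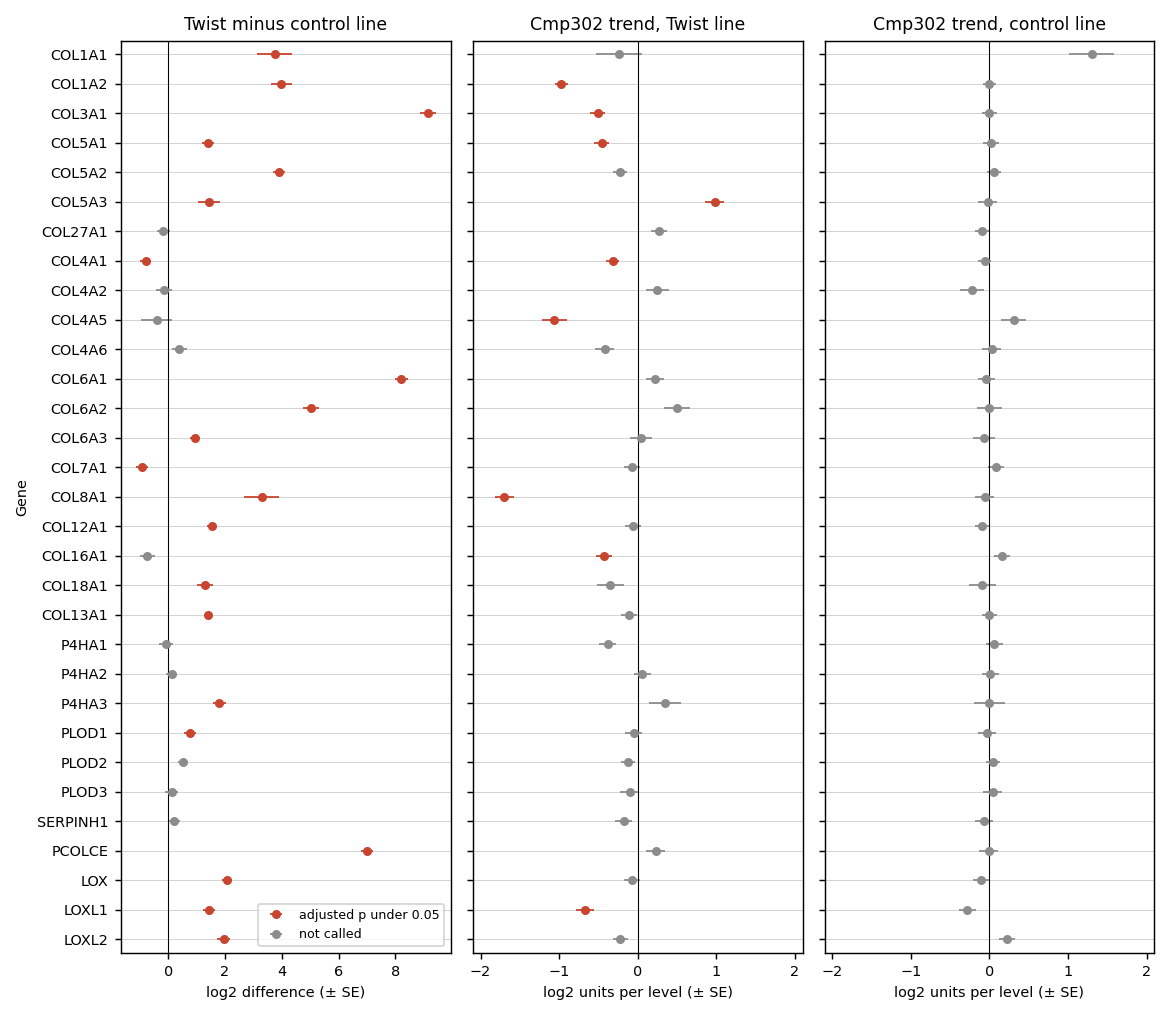
Estimates of limma for the 31 tested genes (y axis) are plotted with their SE as bars: the Twist minus control difference in log2 units in the left panel, and the Cmp302 trends in log2 units per level in the Twist line (middle) and the control line (right). Red marks an adjusted p under 0.05; in the left panel 19 red points lie right of 0 and 2 left, in the middle panel 1 right and 8 left, and in the right panel there are none.

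The second question was what Cmp302 did to these genes in each line. In the Twist line 8 of the 31 tested members fell from DMSO to 10 µM and 1 rose, against 11.3% and 10.9% of all tested genes. Of the 24 members above the floor on all arrays, 6 fell and 0 rose, against 11.8% and 11.4% of such genes. The median trend was -0.12 log2 units per level over the members. The genes that fell were COL8A1, COL4A5, COL1A2, LOXL1, COL3A1, COL5A1, COL16A1 and COL4A1, and the one that rose was COL5A3. By their brightest probe sets, neither the 6 hydroxylases nor SERPINH1 passed the test in either direction, while the second probe set of PLOD2 rose (0.48, adjusted p = 0.032).

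COL8A1 fell by 1.70 ± 0.12 log2 units per level (adjusted p = 0.0058). Its Twist signal was 3.94-fold lower at 5 µM and 10.5-fold lower at 10 µM than at DMSO. COL4A5 fell by 1.06 ± 0.16 (adjusted p = 0.017), 3.01-fold lower at 5 µM and 4.36-fold at 10 µM, so most of its drop lay between DMSO and 5 µM. COL1A2 fell by 0.97 ± 0.08 (adjusted p = 0.0063), 1.92-fold lower at 5 µM and 3.85-fold at 10 µM, close to equal steps. In all 3 genes the array at 10 µM was the lowest of the Twist line.

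Smaller drops were called in 5 further members. LOXL1 fell by 0.67 ± 0.11 per level (adjusted p = 0.022) and was 2.52-fold lower at 10 µM. COL3A1 fell by 0.51 ± 0.10 (adjusted p = 0.029) and was 2.03-fold lower at 10 µM, where it still stood at least 399-fold above the control line. COL5A1 fell by 0.46 ± 0.10 (adjusted p = 0.033), COL16A1 by 0.43 ± 0.10 (adjusted p = 0.037) and COL4A1 by 0.32 ± 0.08 (adjusted p = 0.040). COL1A2, COL3A1, COL5A1, COL8A1 and LOXL1 were thus both higher in the Twist line and lower there with Cmp302. The line difference and the trend share the Twist arrays.

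COL5A3 rose by 0.98 ± 0.12 log2 units per level (adjusted p = 0.013), 2.66-fold above DMSO at 5 µM and 3.88-fold at 10 µM. Both of its probe sets were called, and its Twist DMSO signal lay within 1 unit of the floor. No type VI chain passed the test by its brightest probe set. COL6A2 stood 2.08-fold and 2.01-fold above its DMSO array, with a trend of 0.50 that missed the threshold (adjusted p = 0.068). COL6A1 stood 1.29-fold and 1.35-fold above its DMSO array (0.22, adjusted p = 0.18), and COL6A3 had a trend of 0.04 (adjusted p = 0.89).

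Several members lay near the threshold. P4HA1 had a trend of -0.38 (adjusted p = 0.051) and was 1.58-fold lower at 5 µM and 1.70-fold at 10 µM. COL4A6, the neighbour of COL4A5, had a trend of -0.42 (adjusted p = 0.056) with values of 1.68-fold and 1.80-fold lower. COL27A1 had a trend of 0.27 (adjusted p = 0.088) by its brightest probe set and -0.29 (adjusted p = 0.16) by the next brightest, so its direction is left unstated. COL4A2, the neighbour of COL4A1, had a trend of 0.25 (adjusted p = 0.25) by its brightest probe set and -0.13 (adjusted p = 0.37) by the other, so no direction is given for it. The difference within a head-to-head pair was not tested. SERPINH1 had -0.18 (adjusted p = 0.25), PCOLCE 0.23 (adjusted p = 0.20) and LOX -0.07 (adjusted p = 0.64).

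**Figure D3:**
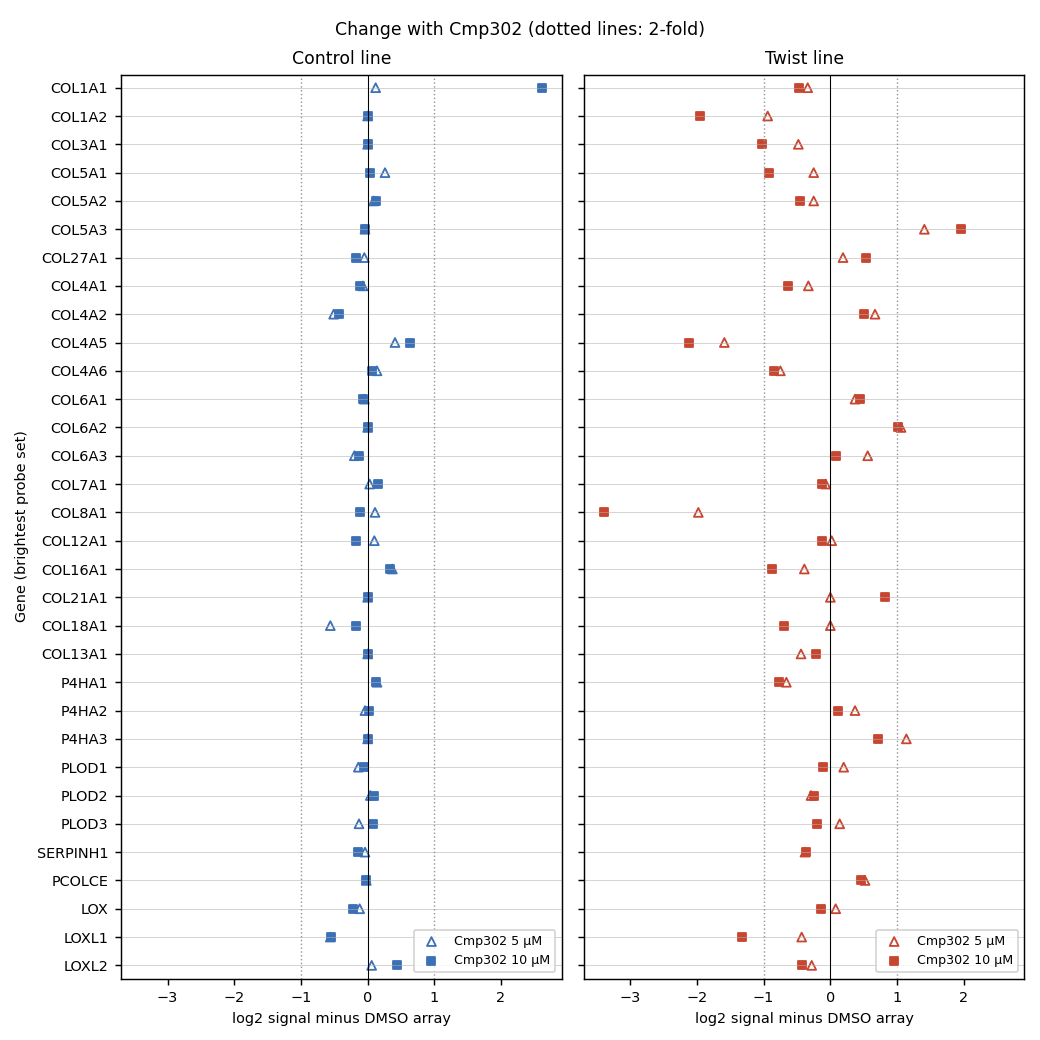
The log2 signal of each Cmp302 array minus the DMSO array of its line (x axis) is plotted for each gene above the floor on any array (y axis), with the control line on the left, the Twist line on the right, open triangles for 5 µM and filled squares for 10 µM. Dotted lines mark a 2-fold change; in the Twist line COL8A1 at 10 µM lies farthest left and COL5A3 farthest right, and in the control line COL1A1 at 10 µM is the only point past 2-fold.

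Counted by fold alone, without a test, the Twist line at 5 µM had 3 of 31 measured members at least 2-fold higher (COL5A3, COL6A2 and P4HA3) and 2 lower (COL4A5 and COL8A1), against 4.42% and 5.01% of all measured genes. At 10 µM 2 of 32 were higher (COL5A3 and COL6A2) and 5 lower (COL1A2, COL3A1, COL4A5, COL8A1 and LOXL1), against 8.03% and 8.45%. Both levels are set against the same DMSO array. With levels coded 0, 1 and 1, as if both were the same dose, 5 members fell and 4 rose, against 17.7% and 15.5% of all tested genes. Those that rose were COL4A2, COL6A2 and P4HA3 beside COL5A3. Those that fell were P4HA1 (-0.71, adjusted p = 0.012) and COL4A6 (-0.80, adjusted p = 0.014) beside COL1A2, COL4A5 and COL8A1. Under this coding the falls of COL4A1, COL3A1, COL16A1, LOXL1 and COL5A1 were no longer called (adjusted p = 0.062 to 0.17).

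In the control line no member was called in either direction, and 0% of all tested genes were called higher and 0% lower by limma. At an unadjusted p under 0.05 there were 938 genes over the array and 2 members, COL1A1 (1.30 per level, adjusted p = 0.62) and LOXL1 (-0.28, adjusted p = 0.62). By fold alone, 0 of 26 measured members were past 2-fold at 5 µM, where 0.0584% of all genes were higher and 0.0668% lower. At 10 µM 1 of 26 was higher and 0 lower, against 0.200% and 0.259%. That gene was COL1A1, through the probe set named above. With the 3′ to middle contrast as a covariate, chosen after the data were seen, 2 members were called higher in the control line, against 0.312% of all tested genes. They were COL1A1 and P4HA3, the latter at the floor on all 3 control arrays. That fit took the spread of each gene wholly from genes of like signal, as told below.

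The difference between the lines in their trends was tested directly. It was called for 2 of 31 members, both more negative in the Twist line, and for 0 more positive, against 0.793% and 0.745% of all tested genes. COL8A1 had a trend 1.64 ± 0.18 log2 units per level below that of the control line (difference -1.64, adjusted p = 0.036). COL1A2 had a difference of -0.97 ± 0.12 (adjusted p = 0.037), with a control trend of 0 that comes from 3 arrays at the floor. Differences that missed the threshold were those of COL4A5 (-1.38, adjusted p = 0.051), COL5A3 (1.00, adjusted p = 0.051), COL16A1 (-0.60, adjusted p = 0.057) and COL1A1 (-1.54, adjusted p = 0.062). For the other members that fell or rose, no difference from the control line was shown.

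The Twist-line trends were refitted with the 3′ contrast as a covariate and without single arrays. The covariate leaves 1 residual degree of freedom, and limma then took the spread of each gene wholly from that of genes of like signal, so its p-values are not comparable with those above. With it, 5 members were called lower: COL8A1 (-1.54), COL1A2 (-0.99), COL4A5 (-0.73), LOXL1 (-0.77) and COL5A1 (-0.66), against 4.51% of all tested genes. COL5A3 was again called higher (0.69). The calls of COL3A1 (-0.53, adjusted p = 0.11), COL4A1 (-0.31, adjusted p = 0.067) and COL16A1 (-0.50, adjusted p = 0.100) were lost, as were the differences between lines of COL8A1 (-1.31, adjusted p = 0.079) and COL1A2 (-1.02, adjusted p = 0.16). Without the Twist DMSO array no gene on the array was called, and the slope between the 2 Cmp302 arrays was -1.42 for COL8A1, -0.90 for LOXL1 and -0.54 for COL4A5. Leaving out any other single array except the one at 5 µM in the Twist line likewise gave no call over all genes. Each of these fits had 1 residual degree of freedom, to which limma added 1.07 to 1.09 from the shared spread.

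Different probe sets of a gene were read side by side, since they share its transcript and are not replicates. Of 69 tested probe sets of the members, 44 were higher in the Twist line and 5 lower, against 13.5% and 14% of all 24629 tested. Probe sets at the floor on every control array, such as all those tested of COL1A2 and COL3A1, passed the filter only through the Twist line. The higher share is thus in part set by the filter. Among 21 genes with at least 2 tested probe sets, only P4HA2 had line differences of both signs. With the median over a gene's probe sets, the line calls of COL8A1 (0.79), P4HA3 (0.27) and COL13A1 (0.13) were lost. The Twist-line falls of COL8A1 and COL1A2 were then smaller, -0.81 and -0.61 per level, and both were still called. Without probe sets whose suffix marks possible cross-hybridisation, COL3A1 differed between lines by 0.75 and COL4A5 had a Twist trend of -0.26, and neither was called. The probe sets left for them were dim. That of COL3A1 read 5.37, 4.31 and 3.71 in the Twist line, and that of COL4A5 4.26 to 4.95 over all arrays. The brighter COL3A1 probe sets, all with such a suffix, differed by 7.31 to 9.16. Whether cross-hybridisation had a part was not tested. Trends in the Twist line had both signs in 10 of the 21 genes, and no gene was called in both directions. Every tested probe set was called the same way for COL1A2, COL4A1, COL5A1, COL8A1 and COL5A3. COL1A1 was not called by its brightest probe set (-0.24, adjusted p = 0.59), and the second read 12.59, 12.99 and 12.70. The third fell from 11.51 to 10.02 and 9.27 (-1.12, adjusted p = 0.015), and the dimmest of those tested fell too (-0.41, adjusted p = 0.031). With the median over its probe sets, which in the Twist line is the third one, COL1A1 was called lower (-1.12, adjusted p = 0.015). For COL3A1, 2 of 4 tested probe sets fell. For COL6A1, 2 of 8 rose, and for COL6A2 the dimmer of its 2 probe sets rose (0.76 ± 0.15, adjusted p = 0.029), from 6.15 to 7.42 and 7.66.

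**Figure D4:**
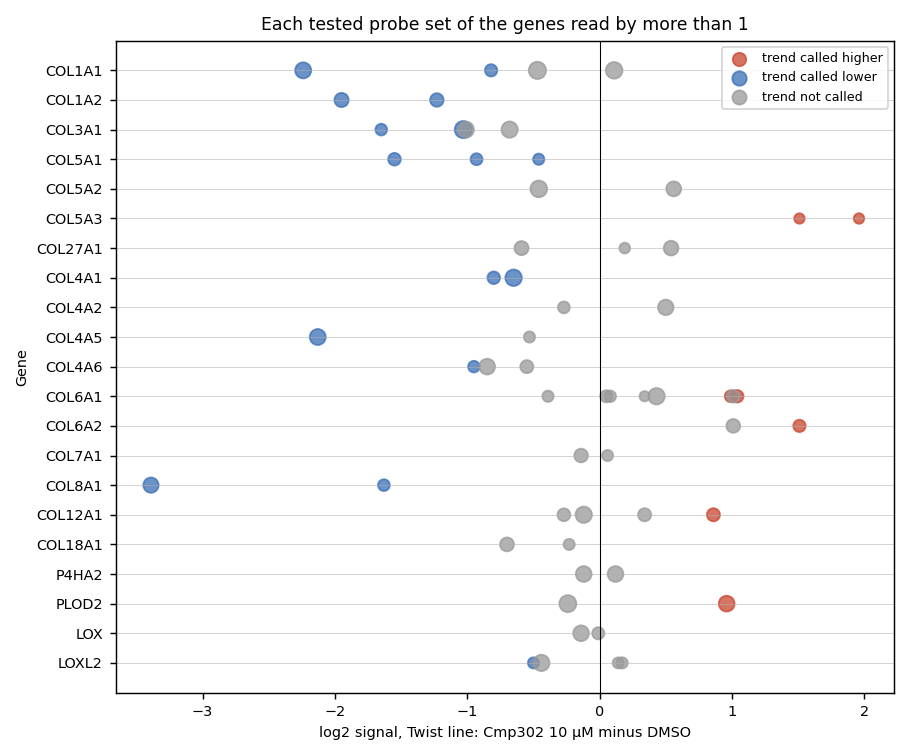
For the 21 genes with at least 2 tested probe sets (y axis), each point is a probe set, placed by its log2 signal in the Twist line at Cmp302 10 µM minus DMSO (x axis), with its size growing with the Twist DMSO signal and its colour showing the call of its trend over all 3 Twist arrays. Blue points, called lower, include all those of COL1A2, COL5A1, COL4A1 and COL8A1, and red points, called higher, both of COL5A3.

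Genes around the members, from lists of the same pathway, were read the same way. Of 13 measured genes of collagen folding in the endoplasmic reticulum, 4 were higher between lines and 1 lower, and 4 rose and 1 fell with Cmp302 in the Twist line. The shares over all genes given above, 13.7% and 14.9% by line and 10.9% and 11.3% by trend, apply to each list here, and the 1 lower and the 1 that fell of these 13 lie under them. CREB3L1, a membrane-bound factor that drives collagen genes, was at the floor on every control array, was higher by at least 3.38 log2 units and rose by 0.41 per level (adjusted p = 0.027). P3H1, a prolyl 3-hydroxylase, was higher by 1.28 and PHYKPL, which breaks down phosphohydroxylysine, by 1.41. P3H2, another prolyl 3-hydroxylase, was lower by line (-3.67) and rose with Cmp302 (0.74, adjusted p = 0.022). PHYKPL rose too (0.81, adjusted p = 0.019), as did PPIB, a prolyl isomerase (0.44, adjusted p = 0.041), while TMEM38B, a channel of the reticulum membrane, fell by 0.57 (adjusted p = 0.035). None of the 12 measured export genes was called between lines, and MIA2 (0.51, adjusted p = 0.037) and SEC13 (0.54, adjusted p = 0.042) rose with Cmp302, 2 of 12 against 10.9% of all genes. Of 20 other collagen chains only COL4A4 could be tested, and it fell by 0.51 per level (adjusted p = 0.012), with all control arrays at the floor.

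Collagen breakdown genes split between lines, with 4 of 12 higher and 4 lower. MMP10 (-4.60), MMP9 (-3.83) and MMP1 (-2.58), secreted metalloproteinases, were lower in the Twist line, where MMP10 and MMP9 lay at the floor on every array, so that both values are bounds, and MMP2, a gelatinase, was higher (2.45). Only the uptake receptor MRC2 changed with Cmp302, falling by 0.60 per level (adjusted p = 0.022). Among 5 other proteinases and crosslinking enzymes, PCOLCE2 (4.06) and ADAMTS2 (0.60) were higher, and LOXL3 (-1.54) and TGM2 (-5.04) lower. ADAMTS2, which removes the N-propeptide, fell by 0.27 per level (adjusted p = 0.043). Among 5 collagen receptors, DDR2 (7.07) and ITGA10 (3.73) were higher and ITGA2 lower (-3.25). ADAMTS2, DDR2, ITGA10 and TGFBR3 lay at the floor on every control array, so their line differences are lower bounds. ITGA2 fell by 0.55 per level (adjusted p = 0.031) and ITGA10 by 0.53 (adjusted p = 0.021). Of 13 TGF-beta genes, TGFBR3 (7.07) and CCN2 (1.87) were higher and SMAD7 (-1.55) and TGFB1 (-0.64) lower. TGFBR2 and TGFB3 fell with Cmp302, by 0.43 (adjusted p = 0.027) and 0.31 per level (adjusted p = 0.036).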

How the data were processed

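RNA of 6 HMLE samples, 1 per group, was hybridised to the U133 Plus 2.0 array of Affymetrix. The unit of the deposited values, a log2 signal, was inferred from the values because no label states it. The test design called for a log step only if the signal was linear, so that step was left out. The submitters' processing notes name GCOS 1.2, and the sources used here do not give the summarisation method. Of 54675 probe sets, 62 controls, 1801 with several symbols and 11721 with none were left out. Arrays were shifted to a median log2 ratio of 0 to the mean array over the probe sets above the median (offsets -0.027 to 0.008), and lower signals were set to the floor. Every member is named, and of each pathway list the called genes, or, if more than 4 were called, those 4 with the widest line difference; PPIB, TMEM38B, MRC2, TGFBR2 and TGFB3 were added after their values were seen. Tests used limma 3.58.1 in R 4.3.3 (eBayes with trend), and p-values were adjusted by Benjamini-Hochberg across the 12480 genes that passed the floor on 2 or more arrays, with a threshold of 0.05. The line model held the 3 treatments as a factor, and the trend model held line, level (0, 1, 2) and their interaction. Both were run on simulated data with independent noise, constant line differences or straight trends, and no floor. That run cannot show how the models behave on floored signals or uneven steps. No label says that cultures were independent, so p-values measure only the spread between these arrays, whose number limits precision. With 1 array per group, that spread comes from no replicates. In the line model it includes any change of the line difference over the 3 treatments. In the trend model it includes any departure from a straight line over the levels. A call thus depends on how constant the line difference is or how even the steps are. Members and lists were chosen with earlier results of these data known. Alternatives were scaling, floor, filter, probe set choice, level coding, leaving out arrays, and a quality covariate, which was added for the trends after the data were seen.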

Additional observations from a re-analysis of the deposited data

Results flagged for a closer look

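The difference in the Cmp302 trend between the lines, tested as an interaction over all 6 arrays, was called for 2 members. For COL8A1 it was -1.64 log2 units per level (adjusted p = 0.036), with Twist signals of 10.32, 8.34 and 6.92 at DMSO, 5 µM and 10 µM and control signals of 5.24, 5.34 and 5.11. For COL1A2 it was -0.97 log2 units per level (adjusted p = 0.037), with Twist signals of 8.66, 7.72 and 6.71 and control signals at the floor. A level at the floor cannot fall further, so the difference of COL1A2 compares a measured slope with a bound.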

How the results depend on the processing

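With 1 array per group, the counts in the report rest on 2 residual degrees of freedom, and signals near the floor give bounds. The line model compared the lines within each treatment. Replicates could not be paired because the labels carry no replicate numbers beyond 1 array per group. No call turned its direction in any alternative. Line calls, 19 higher and 2 lower, became 10 and 0 with no filter, against 4.20% and 6.29% of all genes. They became 12 higher without probe sets of the suffixes for cross-hybridisation, against 14.9%. The lower count was 5 without the DMSO pair, 0 without either Cmp302 pair and 4 with the quality covariate, where the share of all genes called lower was 30.6% without the DMSO pair and 33.7% with the covariate, so the members' shares did not exceed it. Twist-line rises, 1 in the report, were 2 with the floor at the 35th percentile, 0 at the 65th, 0 with no filter, 2 with the median over probe sets, 3 without suffixed probe sets and 4 with levels coded 0, 1 and 1. Of all genes, 9.38% rose with the floor at the 35th percentile and 12.0% at the 65th. With the median over probe sets 11.1% rose, and without suffixed ones 10.9%. These counts of rises do not set the members apart. Falls, 8 in the report, were 5 with the floor at the 65th percentile, 0 with no filter, 5 with the covariate and 5 with levels coded 0, 1 and 1, a coding under which 17.7% of all genes fell and 15.5% rose. With no filter 0.0506% of all genes fell and 0.0405% rose, so calls were lost over the whole array. With the floor at the 65th percentile 12.5% of all genes fell, and with the covariate 4.51%. Leaving out each array gave 0 to 3 rises and 0 to 7 falls. The highest counts came without the Twist array at 5 µM, where 11.8% of all genes rose and 14.0% fell. Control-line rises were 2 with the covariate, against 0.312% of all genes. Trend differences, 0 higher and 2 lower, were 2 higher with the floor at the 35th percentile, against 1.67% of all genes. They were 1 higher without suffixed probe sets, against 1.83%, and 3 higher with levels coded 0, 1 and 1, against 12.5%. The members' share under that coding did not exceed that of all genes. Lower differences were 0 with no filter, the median over probe sets or the covariate. Leaving out each array gave 0 to 3 higher and 0 to 3 lower. The highest counts came without the Twist array at 5 µM, where 8.18% of all genes were called higher and 9.32% lower. By fold alone, the rise in the control line at 10 µM was 0 with the median over probe sets, rises in the Twist line at 5 µM were 1 with the floor at the 65th percentile, and those at 10 µM were 1 with quantile normalization and 1 with that floor. Leaving out an array or a pair, or adding the covariate, leaves 1 residual degree of freedom, and leaving out probe sets leaves 22 members tested; for the others the cause was not tested.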
